A study of Mus musculus with 4 samples.

Results

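Interferon-stimulated genes were followed in 2 sorted populations of mouse bone marrow, before and after irradiation and transplantation. The group was set by a list of 39 gene names, covering antiviral effectors, guanylate-binding proteins, immunity-related GTPases, sensors of foreign nucleic acid and factors of interferon signalling. A probe was taken where its gene name in the spot files is on the list, whatever its signal. In all, 38 of the 39 names were found, on 58 probes, among 29319 named genes on the array. Ifi27 was not found under that name. The probe named Gbp6 carries an accession that RefSeq now assigns to Gbp7, and it is called Gbp6 here as in the files.

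Interferons are secreted proteins through which cells warn each other of infection. Type I interferons (the alpha family and beta) signal through Ifnar1 and Ifnar2, the kinases Jak1 and Tyk2 and a complex that holds Stat2 and Irf9 and binds interferon-stimulated response elements (ISREs). Interferon gamma, made by T and NK cells, signals through Ifngr1 and Ifngr2, Jak1 and Jak2, and its STAT dimers bind gamma-activated sites (GAS). In bone marrow, interferons are known to push resting blood stem cells into division, and stem cells are known to keep some interferon-stimulated genes switched on.

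The study asked which expression signatures marrow niche cells carry while blood stem cells proliferate. LSK cells, which lack lineage markers and carry Sca-1 and c-kit, comprise blood stem cells and their earliest progeny, and CD45-negative cells were sorted as stroma. All samples are labelled as C57BL6/J of 7 weeks. Each population was taken from healthy mice (day 0) and from CD45.1 recipients given 700 cGy and 30000 LSK cells of CD45.2 mice (day 10), where the LSK cells sorted were described as donor cells. The stroma gate is described in one place as CD45.1-negative and in another as CD45-negative, so whether donor leukocytes passed it is not settled by the labels; neither the sex of the mice nor pooling of animals is stated. Each of the 4 groups had 1 array, so no difference below has a test, an error or a replicate check, and each describes 2 arrays.

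All 4 arrays were on 1 slide and 1 scan. Between 47.6% and 56.6% of probes were well above background. Replicate spots of a probe had an SD of 0.16 to 0.23 log2 units within an array. Ptprc, the gene of CD45, was above background in the CD45-negative cells, at 3.10 on day 0 and 5.58 on day 10. In LSK cells it stood at 4.18 and 4.25, so the CD45-negative level at day 10 was above both LSK levels. Kit and Ly6a, which encode the sort markers c-kit and Sca-1, were above background on all 4 arrays: Kit stood at 5.04 and 4.65 in LSK cells and at 1.52 and 1.94 in CD45-negative cells, and Ly6a at 2.98 and 2.86 in LSK cells and at 0.20 and 3.44 in CD45-negative cells (day 0, then day 10). Ly6a was thus higher in CD45-negative than in LSK cells at day 10. Levels are log2 of the background-subtracted signal relative to the 75th percentile of the array, so 0 is that percentile. A level depends on the probe, so values are compared between arrays and not between genes. A difference was counted only if both arrays passed the scanner's flag for a signal well over background (called measured below), and "at least 2-fold" is a size, not a test. In such bulk samples, fewer cells of a type and less RNA per cell cannot be told apart.

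Nearly the whole group was present in both populations. Of the 38 members, 37 were above background on all 4 arrays, and no member's spot was saturated. Mx1 was not above background in CD45-negative cells at day 0 and so has no measured difference there.

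In LSK cells, most members were slightly higher 10 days after transplantation. The difference was above 0 for 34 of 38 members, with a median of 0.63, against a median of -0.0059 and 49.2% above 0 over all 16405 genes measured in both LSK arrays. The members ran from -0.62 for Bst2 to 1.69 for Oas2. Only 3 of 38, Oas2, Apobec3 and Oasl1, were at least 2-fold higher, where 1.44% of all measured genes were, and 0 were at least 2-fold lower, where 2.68% of all measured genes were. Another 18 lay between 1.5-fold and 2-fold higher. Over all measured genes percentile 93 stood at 0.55, just below 1.5-fold, and percentile 94 at 0.60, just above it. The differences of 6 members were smaller than the largest SD of replicate spots.

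Markers of other cell types differed between the LSK sorts as well. Over all measured genes 1.44% were at least 2-fold higher and 2.68% lower. By day 10, 2 of 6 measured plasma cell markers stood lower by at least 2-fold, with Jchain, the joining chain of antibodies, at -4.64 (summed signal 220 and 26.2 times the 75th percentile). Of 13 T and NK cell markers 3 were at least 2-fold lower, with Cd8a at -3.05, and 1, Gzma, was 1.95 higher (summed signal 105.4 and 85.9). Of 13 neutrophil markers 3 granule genes were at least 2-fold higher, Ngp by 2.52, Ltf by 1.56 and Camp by 1.40 (709 and 748), as were 2 of 11 monocyte and macrophage markers, Fcgr1 by 1.90 and Adgre1 by 1.38 (171 and 207). Their part in the members' differences was not tested.

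In CD45-negative cells the members went apart. Of 37 measured, 15 were at least 2-fold higher at day 10 (23.6% of all 14506 measured genes were) and 5 were at least 2-fold lower (17.8% of all measured genes were). The shares of members were 40.5% and 13.5%. The median difference of 0.65 stood beside a median of 0.19 over all measured genes, and the members reached from -4.16 for Rsad2 to 3.72 for Ifit3. Ifit3, Zbp1 and Rtp4 were the furthest up, and Rsad2, Isg20 and Isg15 the furthest down.

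**Figure D1:**
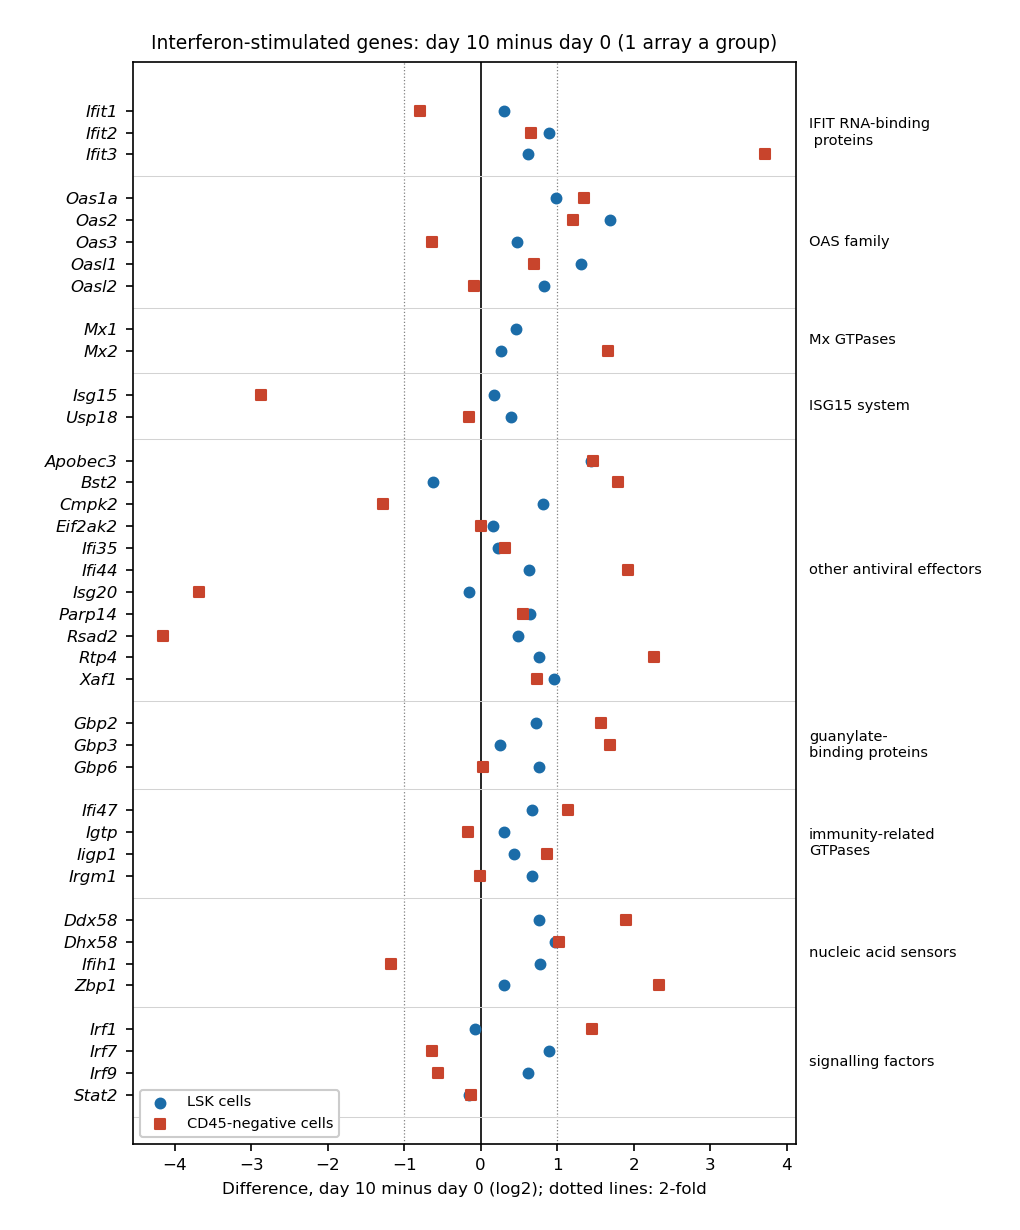
Difference between day 10 and day 0 (log2, x axis) for each interferon-stimulated gene (y axis, grouped by role) in LSK cells (blue circles) and CD45-negative cells (red squares), with 1 array a group and dotted lines at 2-fold. The LSK points keep between -0.62 and 1.69, while the CD45-negative points reach from -4.16 for Rsad2 to 3.72 for Ifit3; Mx1 has no CD45-negative point.

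These directions rest on the scale of the arrays. The spike-in control probes were 2.38 and 2.51 log2 units above the 75th percentile in LSK cells, and 3.89 and 1.12 above it in CD45-negative cells. Scaling each array to its spike-ins would add 2.77 to every CD45-negative day difference and take 0.13 from every LSK one. On that scale 34 of 37 members would be at least 2-fold higher in CD45-negative cells and 1 lower. Of all 14506 measured genes, 13244 would be at least 2-fold higher and 223 lower, so this holds for genes in general. Of the 14 members below 0 in CD45-negative cells, 11 would turn to higher: Ifit1, Oas3, Oasl2, Irf7, Irf9, Stat2, Usp18, Igtp, Irgm1, Ifih1 and Cmpk2. With only the 5 spike-in probes that were measurable on all arrays, Isg15 would turn as well. The order of the members within a population does not depend on that shift.

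Markers of cell types differed between the days in the CD45-negative sort too. Over all measured genes 23.6% were at least 2-fold higher and 17.8% lower. Spike-in scaling would add 2.77 to each difference below as well, so these counts also rest on the scale. At day 10, erythroid markers were at least 2-fold down in 13 of 13 on the array (median -4.30), and their summed signal went from 2521 to 321 times the 75th percentile. All 7 measured stromal and bone cell markers were at least 2-fold lower (summed signal 142 and 13.7), with Kitl and Sp7 below background on both arrays and Ebf3, Lepr and Pdgfra at day 10. All 9 measured T and NK cell markers were at least 2-fold higher, and 5 more, among them Gzma, Il2rb and Cd8a, were above background at day 10 only (summed signal 8.21 and 197). Megakaryocyte and platelet markers were at least 2-fold lower in 4 of 5 measured (median -4.10), and 3 more were above background at day 0 only (29.7 and 1.54). Plasma cell markers were higher in 5 of 5 (21.4 and 287), B cell markers in 6 of 8 (267 and 471), neutrophil markers in 9 of 13 with 1 lower (1193 and 992). Markers of plasmacytoid dendritic cells, which make much type I interferon, were at least 2-fold higher in 3 of 6 measured, Bst2 left out. Of 11 monocyte and macrophage markers 3 were higher and 3 lower (27.3% each, the former close to the 23.6% of all measured genes). The part of these cells in the members' differences was not tested.

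Promoters of the members that lay furthest apart between the days in CD45-negative cells are shown to set the interferon motifs beside the differences. They belong to the 3 lowest and 3 highest members with an entry in the RefSeq table, and each is the 200 bases before the start, read 5' to 3' on the gene's strand (RefSeq, GRCm38.p6). Capitals mark the letters GAAANNGAAA (the ISRE core) or TTCNNNGAA (GAS), on either strand. Rsad2 is at chr12:26456453-26456652 (minus strand), Isg20 at chr7:78913224-78913423 (plus strand) and Isg15 at chr4:156200819-156201018 (minus strand). Ifit3 is at chr19:34583329-34583528 (plus strand), Ifi44 at chr3:151749911-151750110 (minus strand) and Ddx58 at chr4:40239826-40240025 (minus strand).
Rsad2: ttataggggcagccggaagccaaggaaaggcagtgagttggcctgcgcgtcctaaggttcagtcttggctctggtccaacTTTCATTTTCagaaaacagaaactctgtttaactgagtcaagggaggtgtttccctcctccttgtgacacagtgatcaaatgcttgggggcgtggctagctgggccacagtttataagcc
Isg20: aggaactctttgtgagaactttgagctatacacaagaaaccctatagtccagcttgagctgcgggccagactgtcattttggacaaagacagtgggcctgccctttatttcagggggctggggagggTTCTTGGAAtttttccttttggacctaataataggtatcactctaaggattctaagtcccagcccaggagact
Isg15: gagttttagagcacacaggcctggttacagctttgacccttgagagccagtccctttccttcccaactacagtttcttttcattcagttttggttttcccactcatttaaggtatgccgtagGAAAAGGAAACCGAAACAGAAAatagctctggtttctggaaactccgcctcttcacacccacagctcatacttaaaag
Ifit3: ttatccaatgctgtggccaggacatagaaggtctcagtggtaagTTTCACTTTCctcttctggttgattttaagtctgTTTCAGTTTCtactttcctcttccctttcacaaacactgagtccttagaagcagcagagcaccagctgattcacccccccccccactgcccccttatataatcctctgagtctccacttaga
Ifi44: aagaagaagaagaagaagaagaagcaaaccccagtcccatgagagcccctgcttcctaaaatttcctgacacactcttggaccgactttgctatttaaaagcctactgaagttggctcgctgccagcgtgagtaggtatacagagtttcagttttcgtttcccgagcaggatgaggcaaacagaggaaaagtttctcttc
Ddx58: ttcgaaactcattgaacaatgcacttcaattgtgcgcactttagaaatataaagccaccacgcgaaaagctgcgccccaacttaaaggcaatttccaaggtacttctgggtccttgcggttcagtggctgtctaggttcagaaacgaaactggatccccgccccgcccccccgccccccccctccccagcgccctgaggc
Both the lower and the higher members hold the ISRE core: Rsad2 once, Isg15 in 3 overlapping matches, and Ifit3 in 2 places. Isg20 shows a GAS match only, Ifi44 shows neither, and the single ISRE core of Ddx58 lies outside the bases shown.

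In the full windows, from 250 bases before to 50 after a start, 29 of the 38 members had an entry. The ISRE core was in 17 of their 36 promoters (47.2%), against 3.44% of all 32851 promoters of that length. The GAS letters were in 9 of 36 (25%), against 8.30% of all. Of the members at least 2-fold higher in CD45-negative cells, 7 of 10 with an entry held the ISRE core; of those at least 2-fold lower, 3 of 5 did, and of the rest 7 of 14. A match is a run of letters and not a shown binding site.

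The ligands came first in the pathway. Ifng, which encodes interferon gamma, stood at -0.69 (day 0) and -0.36 (day 10) in LSK cells, the order in which the days are given from here on. In CD45-negative cells it was not well above background at day 0 and stood at 2.93 at day 10, at least 67.9-fold higher. No other interferon gene reached the 75th percentile of any array. Ifng stood beside the T and NK cell markers given above, whose part in it was not tested. The probe of Ifnb1, interferon beta, was not well above background on any array. Of 17 interferon genes on the array, only Ifna9 was above background on all 4 arrays, at -1.83 and -1.68 in LSK cells and -2.18 and -3.56 in CD45-negative cells, where it was 1.38 log2 units lower at day 10. The interferon alpha genes are close copies, so a probe may pick up more than the gene it is named for.

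All 6 receptor chains were above background on every array. In LSK cells each was slightly higher at day 10, from 0.06 for Ifngr1 to 0.67 for Ifnlr1. Ifnar1 differed by 0.50, Ifnar2 by 0.07, Ifngr2 by 0.23 and Il10rb, shared with the interferon lambda receptor, by 0.12. The differences of Ifngr1, Ifnar2, Il10rb and Ifngr2 were within the largest SD of replicate spots. Spike-in scaling would turn Ifngr1, Ifnar2 and Il10rb to lower in LSK cells. In CD45-negative cells the 2 chains of the gamma receptor were higher, Ifngr1 by 0.99 and Ifngr2 by 1.67, as was Ifnlr1 by 1.58, with Il10rb at 0.46. The chains of the type I receptor were not: Ifnar1 differed by -0.19 and Ifnar2 by -0.32. On the spike-in scale both would be higher.

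The kinases behind the receptors were less than 2-fold apart in LSK cells, where Jak1 differed by 0.17, Jak2 by 0.60 and Tyk2 by -0.88. In CD45-negative cells Jak2, which serves the gamma receptor and also the erythropoietin receptor, went from 2.81 to 0.96, and Tyk2, which serves the type I receptor, from -1.59 to 0.17. Jak1, shared by both branches, was 0.46 higher and Stat3 1.44.

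Of the 4 signalling members, 1 was at least 2-fold higher in CD45-negative cells (25%, close to the 23.6% of all measured genes). This was Irf1, an early factor of the gamma response. None was so in LSK cells, where 1.44% of all measured genes were. Irf1 stood at 4.69 and 4.62 in LSK cells, and at 3.48 and 4.93 in CD45-negative cells, a difference of 1.45. Irf7, the factor that amplifies interferon alpha production, stood at -1.63 and -0.74 in LSK cells and at 0.94 and 0.31 in CD45-negative cells. It was thus higher at day 10 in LSK cells (0.89) and lower in CD45-negative cells (-0.63), and the CD45-negative level was above the LSK level on both days. Irf9, the DNA-binding subunit of the type I complex, went from 1.43 to 2.05 in LSK cells and from 3.10 to 2.54 in CD45-negative cells. Stat2, its partner, differed by -0.15 and -0.12, within the SD of replicate spots. A second probe of Irf1 gave 0.34 in LSK cells, where the probe used gave -0.07, within the SD of replicate spots. A second probe of Irf9 gave -1.502 in place of -0.56 in CD45-negative cells.

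All 4 nucleic acid sensors were at least 2-fold apart between the days in CD45-negative cells, 3 higher and 1 lower, where 41.4% of all measured genes were so far apart. With normexp background correction, which models the background in place of the scanner's subtraction, the lower one, Ifih1, was at -0.69 and no longer 2-fold apart. Zbp1, a sensor of Z-form nucleic acid that can start cell death, stood at 0.65 and 0.96 in LSK cells and went from 0.73 to 3.06 in CD45-negative cells, 5.01-fold higher. Ddx58 encodes RIG-I, which detects viral RNA ends; it stood at 1.73 and 2.49 in LSK cells and at 0.41 and 2.31 in CD45-negative cells. Dhx58 (LGP2), a regulator of that sensor, stood at 0.35 and 1.32 in LSK cells and at 0.48 and 1.499 in CD45-negative cells, and was near 2-fold higher in both. Ifih1 (MDA5), which detects long double-stranded RNA, went the other way in CD45-negative cells, from 1.98 to 0.81, while in LSK cells it went from -0.65 to 0.13. Both of its probes gave that pattern, with CD45-negative differences of -1.17 and -1.98 and LSK differences of 0.78 and 1.54. The 2 RNA helicases that start the same signal thus lay on opposite sides at day 10 in the CD45-negative sort, on the scale used here.

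The IFIT proteins bind foreign RNA and block its translation. Their 3 genes agreed in LSK cells, with differences of 0.31 for Ifit1, 0.89 for Ifit2 and 0.62 for Ifit3. In CD45-negative cells they did not. Ifit3 went from -1.77 to 1.95, 13.2-fold higher, the largest difference of any member upward, while in LSK cells it stood at -1.14 and -0.52. Ifit2, its direct neighbour in the genome, went from -0.75 to -0.10 in CD45-negative cells and from -0.74 to 0.15 in LSK cells. Ifit1 went from 0.88 to 0.09 in CD45-negative cells, with -2.32 and -2.01 in LSK cells. With normexp background correction the CD45-negative difference of Ifit3 was 2.70 in place of 3.72. Ifit1 and Ifit3 have 1 probe each, so neither has a second measurement of its own.

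The OAS enzymes make a messenger that sets off the cutting of RNA when they meet double-stranded RNA. This family held 2 of the 3 members at least 2-fold higher in LSK cells, and all 5 were above 0 there. Oas2 went from -0.40 to 1.29 in LSK cells and from 0.64 to 1.85 in CD45-negative cells, 1.69 and 1.21 higher. Oasl1 went from 0.03 to 1.34 and from 1.48 to 2.18. Oas1a went from 1.55 to 2.54 and from 1.73 to 3.08, just short of 2-fold in LSK cells and past it in CD45-negative cells. Oas3 and Oasl2 had opposite signs in the 2 populations: Oas3 differed by 0.47 there and by -0.64 in CD45-negative cells, and Oasl2 by 0.83 and -0.09. A second probe of Oas3 gave 0.14 in CD45-negative cells, so its direction there differs between probes. Oas2 and Oas3 are neighbours in the genome and lay on opposite sides in CD45-negative cells.

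The Mx proteins are dynamin-like GTPases that block viruses. Mx2 stood at 0.18 and 0.44 in LSK cells and went from -0.73 to 0.94 in CD45-negative cells, 3.18-fold higher. Mx1, a gene known to be truncated in most laboratory strains, stood at -3.36 and -2.90 in LSK cells and at -3.67 in CD45-negative cells at day 10. Its 2 probes differed in sign in LSK cells, 0.46 and -0.40.

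Isg15 encodes a ubiquitin-like protein that is joined to other proteins during the interferon response, and Usp18 the enzyme that removes it and that also dampens the type I receptor. Isg15 was near level in LSK cells, at 0.23 and 0.40. In CD45-negative cells it went from 5.90 to 3.04, 7.29-fold lower, and it remained above both LSK arrays. Usp18 stood at 0.12 and 0.51 in LSK cells and at 2.15 and 1.99 in CD45-negative cells, a difference of -0.16 that is within the SD of replicate spots.

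Of the other antiviral effectors, Rsad2 (viperin, which makes a chain-terminating nucleotide) had the largest day difference of all members. It stood at -0.50 and -0.01 in LSK cells and went from 7.48 to 3.32 in CD45-negative cells, 17.8-fold lower. All 3 of its probes showed this, with differences of -4.16, -4.70 and -4.87. Cmpk2, a mitochondrial nucleotide kinase whose gene lies next to Rsad2, was also lower in CD45-negative cells, from 3.56 to 2.27, while it went from 0.46 to 1.27 in LSK cells. Its 2 probes gave -1.28 and -1.29 in CD45-negative cells; with normexp background correction the difference was -0.97, short of 2-fold. Isg20, an exonuclease that degrades viral RNA, stood at 0.34 and 0.18 in LSK cells and went from 6.27 to 2.59 in CD45-negative cells, 12.9-fold lower. Its other probe gave -3.53. Rsad2, Isg20 and Isg15 were the 3 members furthest above their LSK levels at day 0, a comparison that shares the CD45-negative day 0 array with the day difference.

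**Figure D2:**
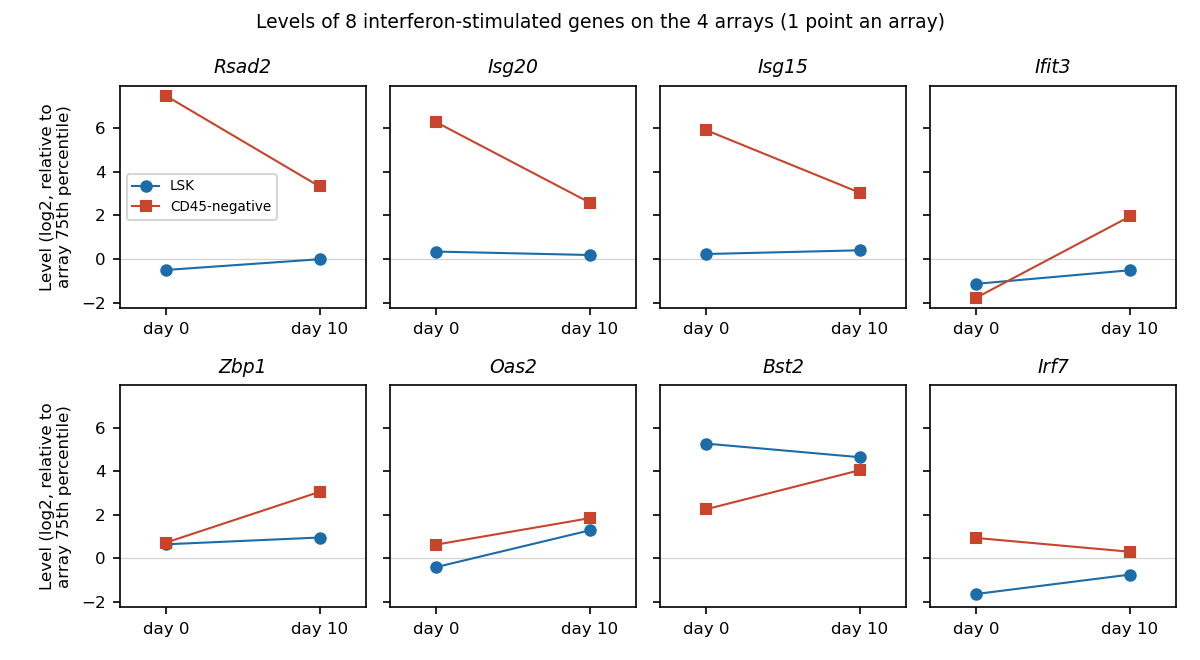
Level (log2 relative to the 75th percentile of the array, y axis) of 8 members at day 0 and day 10 in LSK cells (blue circles) and CD45-negative cells (red squares), 1 array a point; the lines join the days of a population. Rsad2, Isg20 and Isg15 go down in CD45-negative cells from 7.48, 6.27 and 5.90 and are nearly flat in LSK cells, while Ifit3 goes from -1.77 to 1.95 in CD45-negative cells.

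Of the 11 other antiviral effectors, 3 (Rsad2, Cmpk2 and Isg20) were at least 2-fold lower in CD45-negative cells (27.3%, beside 17.8% of all measured genes). At least 2-fold higher there were 4 (36.4%, beside 23.6% of all). Rtp4, a chaperone of cell surface receptors, stood at 1.56 and 2.33 in LSK cells and went from 2.37 to 4.64 in CD45-negative cells, 4.82-fold higher. Ifi44 went from -1.71 to 0.21 there, with -0.68 and -0.04 in LSK cells; the CD45-negative difference of 1.93 was 1.11 with normexp background correction. Apobec3, a cytidine deaminase that mutates retroviral DNA, was higher by nearly the same size in both, 1.44 in LSK cells (1.04 to 2.48) and 1.47 in CD45-negative cells (0.42 to 1.88). Apobec3 and Oas2 were the 2 members at least 2-fold higher in both populations. Bst2 (tetherin) keeps budding virus on the cell surface and is also a marker of plasmacytoid dendritic cells. It was the lowest member in LSK cells, from 5.27 to 4.65, and higher in CD45-negative cells, from 2.26 to 4.05. The other 8 markers of plasmacytoid dendritic cells that could be measured were all below 0 in LSK cells, 5 of them at least 2-fold lower, with a median of -1.49; their part in the Bst2 difference was not tested.

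On the probes used, the remaining effectors were less than 2-fold apart between the days. Xaf1, a partner of cell death regulators, differed by 0.96 in LSK cells and 0.73 in CD45-negative cells. Parp14, an ADP-ribosyl transferase, differed by 0.65 and 0.55. Its other probes gave 0.66 and 1.37 in LSK cells, the latter past 2-fold. In CD45-negative cells they gave -0.33 and -0.64, and Parp14 was the only member whose probes spread over more than 1 log2 unit there. Ifi35 differed by 0.23 and 0.32, and Eif2ak2, the RNA-activated kinase PKR that shuts down translation, by 0.17 and 0.0071.

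Guanylate-binding proteins attack the vacuoles of microbes inside cells and answer strongly to interferon gamma. Gbp2 went from 1.25 to 1.97 in LSK cells and from 0.76 to 2.33 in CD45-negative cells. Gbp3, which lies 1 gene away, stood at 2.20 and 2.46 in LSK cells and went from 0.40 to 2.09 in CD45-negative cells, 3.23-fold higher. Gbp6 differed by 0.76 in LSK cells and 0.027 in CD45-negative cells. The immunity-related GTPases act on the same vacuoles. Ifi47 went from 2.42 to 3.57 in CD45-negative cells and from 2.22 to 2.89 in LSK cells. It was the only one of the 4 at least 2-fold higher in CD45-negative cells (25%, close to the 23.6% of all measured genes). Iigp1 differed by 0.43 in LSK cells and 0.86 in CD45-negative cells, the latter -0.08 with the mean over its probes. Igtp and Irgm1 were higher in LSK cells, by 0.31 and 0.67 (1.05 on a second probe of Irgm1), and near level in CD45-negative cells, at -0.17 and -0.0080. So none of these 7 GTPase genes was more than 0.17 log2 units lower at day 10 in either population on the scale used here.

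Most members with several probes gave 1 direction. Of 12 members with at least 2 measured probes, 9 had the same sign on all of them in LSK cells and 10 of 12 in CD45-negative cells. The spread between probes was over 1 log2 unit for 0 members in LSK cells and for Parp14 in CD45-negative cells. Over single probes, 46 of 53 measured were above 0 in LSK cells and 29 of 52 in CD45-negative cells.

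**Figure D3:**
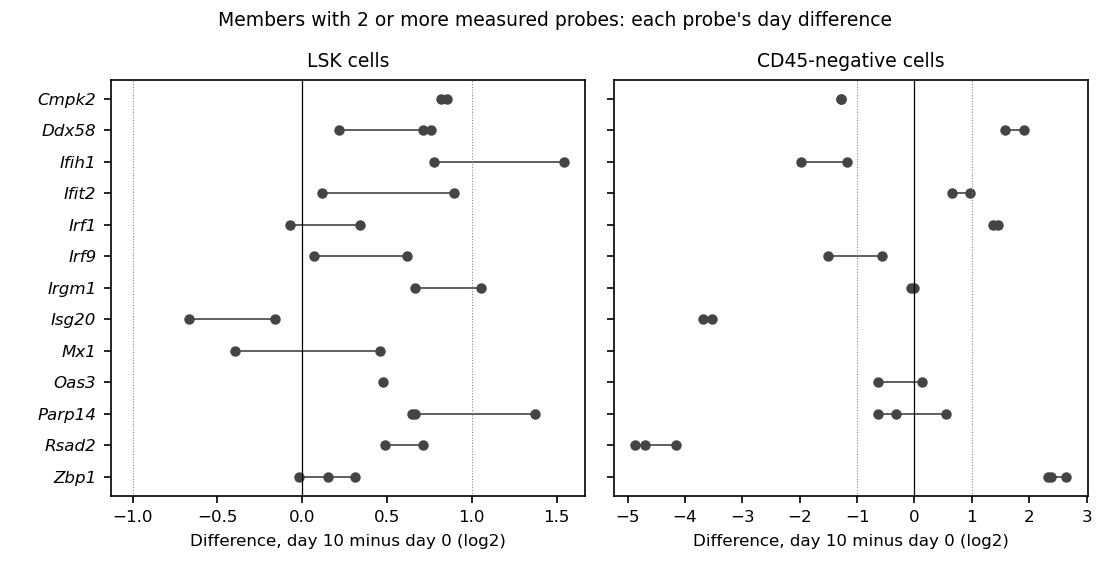
Difference between day 10 and day 0 (log2, x axis) of every measured probe of the members with several probes (y axis), in LSK cells (left) and CD45-negative cells (right); each dot is a probe and a line joins the probes of a gene. The probes of Rsad2 (-4.16 to -4.87) and Isg20 (-3.53 and -3.69) lie together on the left in CD45-negative cells and those of Zbp1 (2.33 to 2.65) on the right, whereas Parp14 and Oas3 straddle 0 there.

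Set side by side, 62.2% of the members had the same direction in both populations, beside 52.7% of all 14199 genes measured on all arrays. Of the 37 members measured in both, the differences were above 0 for 21 members and below 0 for 2, Isg20 and Stat2. For 12 members the LSK difference was above 0 and the CD45-negative one below it, and for 2, Bst2 and Irf1, the reverse held. In 6 of these 14 one of the differences was within the SD of replicate spots: that of Isg15 and Irf1 in LSK cells and that of Oasl2, Usp18, Igtp and Irgm1 in CD45-negative cells. On the scale of all spike-in probes 10 of the 12 would be higher in both. The median of the CD45-negative minus the LSK difference was -0.16, and it turned to 0.16 with another background correction. The 2 differences of a gene come from separate pairs of arrays.

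**Figure D4:**
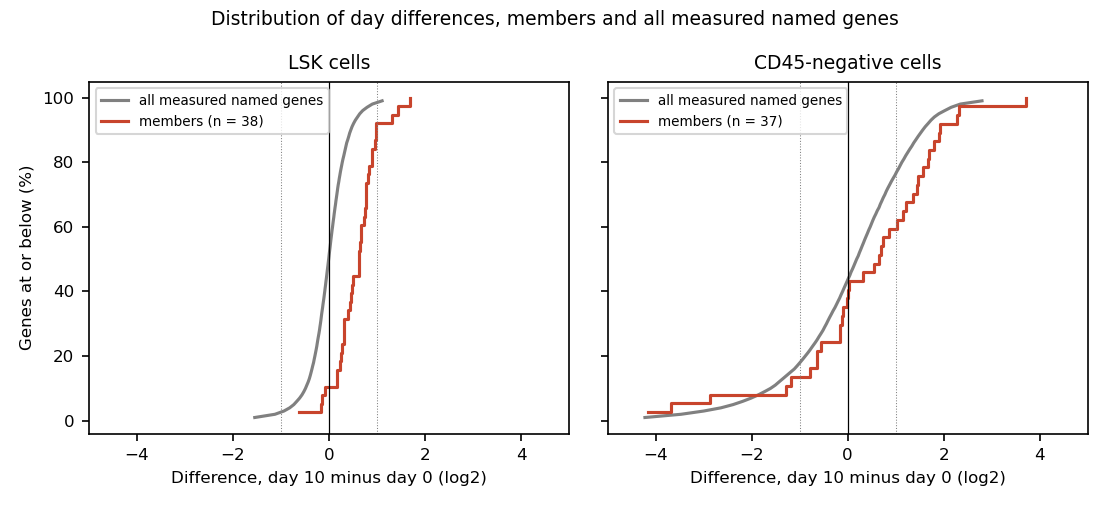
Share of genes (%, y axis) at or below a given difference between day 10 and day 0 (log2, x axis) for the members (red steps) and all measured named genes (grey line, drawn from percentile 1 to 99), in LSK cells (left) and CD45-negative cells (right). In LSK cells the red steps lie to the right of the grey line with a median of 0.63 against -0.0059; in CD45-negative cells they lie to the right above 0 and close to it below.

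Between the populations, members were mostly lower in LSK cells than in CD45-negative cells of healthy marrow. At day 0, 19 of 37 measured members were at least 2-fold lower in LSK cells (17.7% of all measured genes were) and 5 at least 2-fold higher (21.8% of all measured genes were), with a median of -1.03 beside 0.08 over all measured genes. The lowest were Rsad2 at -7.98, Isg20 at -5.93 and Isg15 at -5.68, followed by Oas3 at -3.27, Ifit1 at -3.20 and Cmpk2 at -3.10. The 5 higher in LSK cells were Bst2 (3.01), Gbp3 (1.81), Ddx58 (1.32), Irf1 (1.21) and Ifi44 (1.03). A second probe of Ddx58 gave 0.06 and a second probe of Irf1 gave 0.24, both short of 2-fold. Spike-in scaling would turn the median to 0.48, with 17 members at least 2-fold higher and 8 lower. The share of all genes in this comparison was not counted on that scale.

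At day 10 the span was narrower. Of 38 members, 13 were at least 2-fold lower in LSK cells (12.6% of all measured genes were) and 0 at least 2-fold higher (11.0% of all measured genes were), with a median of -0.68. Rsad2 was still the lowest, at -3.34, then Isg15 at -2.64 and Ifit3 at -2.47. Ifit3 had been 0.63 higher in LSK cells at day 0, and Zbp1 went from -0.08 to -2.09 in the same comparison. The other probes of Zbp1 gave 1.07 and 0.93 at day 0, so its direction then differs between probes. At day 10 they gave -1.59 and -1.29. Markers of other cell types lay apart between the populations too. Over all measured genes 17.7% were at least 2-fold lower in LSK cells at day 0 and 21.8% higher. At least 2-fold lower in LSK cells were erythroid markers (10 of 10 measured at day 0 and 8 of 9 at day 10), neutrophil markers (9 and 10 of 13) and stromal and bone cell markers (5 of 6 and 4 of 6). T and NK cell markers were at least 2-fold higher in LSK cells at day 0 (6 of 9) and lower at day 10 (12 of 13), as were plasma cell markers (4 of 5 higher, then 6 of 6 lower). The part of these cells in the members' differences was not tested.

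**Figure D5:**
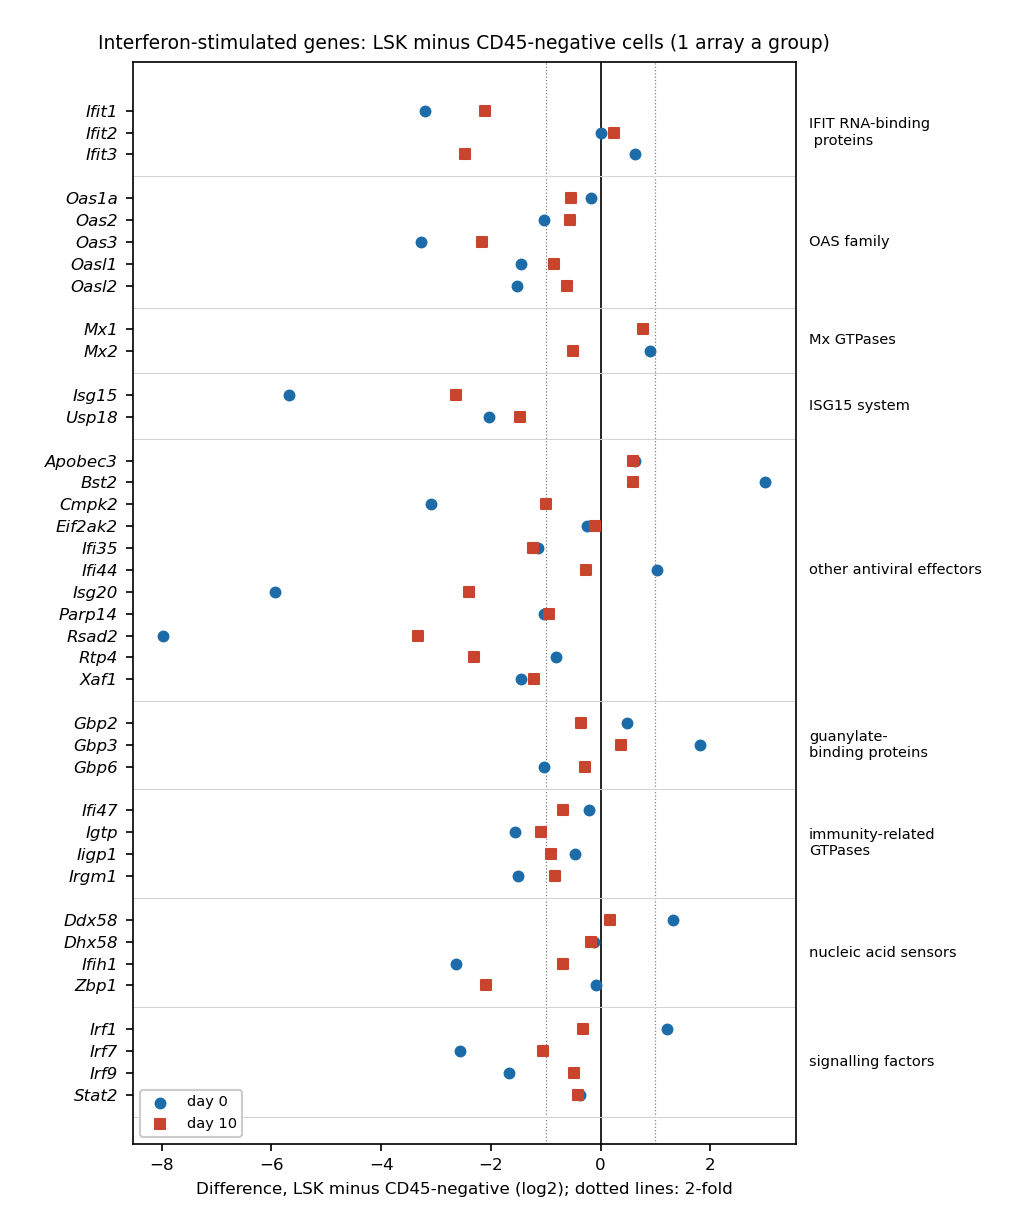
Difference between LSK and CD45-negative cells (log2, x axis) for each member (y axis, grouped by role) at day 0 (blue circles) and day 10 (red squares), with 1 array a group and dotted lines at 2-fold. Rsad2 moves from -7.98 to -3.34, and no member is at least 2-fold higher in LSK cells at day 10.

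The wider pathway was read from lists of genes outside the group. Of 51 other interferon-stimulated genes measured in LSK cells, 4 were at least 2-fold higher (7.84%, beside 1.44% of all measured genes) and 0 lower (2.68% of all), with a median of 0.39 beside -0.0059 over all genes. The 4 were Ifi27l2a (1.22), Trim30a (1.15), Ciita, the master switch of MHC class II (1.11), and Oas1f, a further OAS gene (1.06). Cxcl9, a chemokine known to answer to interferon gamma, was above background in LSK cells at day 10 only and at least 7.93-fold higher there, while in CD45-negative cells it was 1.82 lower; it is named after its values were seen. In CD45-negative cells 29 of 53 were at least 2-fold higher (54.7%, beside 23.6% of all measured genes) and 6 lower (11.3%, beside 17.8% of all), with a median of 1.13 beside 0.19 over all genes. The largest differences were Ube2l6, a conjugating enzyme of the Isg15 protein (-3.00), Epsti1 (2.94), Ifi27l2a (2.53) and Slfn2, linked to the quiescence of T cells (2.46). The probe called Gbp6 is on this list by its RefSeq name Gbp7, but it was left out of these counts.

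Brakes and sensors of the pathway, like genes in general, were more often 2-fold apart between the days in CD45-negative than in LSK cells. Of 14 negative regulators, 5 were at least 2-fold higher in CD45-negative cells (35.7%, beside 23.6% of all measured genes) and 1 lower (7.14%, beside 17.8% of all), led by Socs1, which blocks the receptor kinases (2.21), and Nlrx1, a mitochondrial brake on RNA sensing (2.17), then Ptpn6 (1.59) and Socs3 (1.42). In LSK cells 0 of 14 was 2-fold apart, where only 4.11% of all measured genes were. Of the adaptors and endosomal receptors, 4 of 11 measured (36.4%) were higher and 2 (18.2%, close to the 17.8% of all genes) lower in CD45-negative cells. Traf3 (1.84) and Sting1, the adaptor of DNA sensing (1.82), were higher, and Tlr9, a receptor for microbial DNA (-1.76), and Tbk1, the kinase that activates Irf3 (-1.42), were lower. In LSK cells 0 of 13 was 2-fold apart (4.11% of all measured genes were). A further list held interferon regulatory factors outside the group and Irf2-binding proteins. Of 7 measured in CD45-negative cells, 3 were at least 2-fold higher (42.9%, beside 23.6% of all measured genes) and 0 lower (17.8% of all). The 3 were Irf4, a factor of plasma and activated T cells (2.27), Irf5 (1.30) and Irf2bp2 (1.14). In LSK cells 0 of 8 was at least 2-fold higher (1.44% of all) and 1 lower (12.5%, beside 2.68% of all).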

How the data were processed

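Total RNA of each sample was labelled with Cy3 and hybridised to an Agilent mouse array (design build mm9, per the file headers), and the headers name Agilent Feature Extraction 10.5.1.1 as the software that read the scan. The deposited spot files hold fluorescence intensity (a raw mean, a local background and a processed signal with background subtracted and spatial trends removed), per the file headers, and flags for detection, saturation and outlier spots. The deposited series table holds log2 values that the authors shifted to put each array's 75th percentile near 0; at least 99.977% of its values lie 1 constant away from the log2 processed signal of that array, to within 0.001. How animals were pooled is not stated.

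Outlier spots were left out, which removed 117 of the probes and none of the members'. Processed signals were put on the log2 scale, spots of the same probe were averaged, and each array's 75th percentile was taken off. Of several probes of a gene, that of the highest mean level over the arrays was used. Noncoding probes (20633) were kept apart; names were updated through RefSeq accessions for 28081 of 40557 gene probes (69.2%), but members were matched by the name in the files. A bound was set against the lowest level called above background on the dim array. With 1 array a group no test was run; the counting was tested on simulated data. R 4.3.3 with limma 3.58.1 gave the alternative normalizations, Python 3.11.15 the rest. The number of arrays, 1 a group, limits all precision.

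All members are named, by role. Of the pathway lists, Ifng, Ifnb1, the receptor chains, Jak1, Jak2 and Tyk2 are always named, and per list and comparison of days up to 4 measured genes with the largest difference of at least 2-fold; other probes of a gene are named where they change its direction or differ by over 1 log2 unit, or to show agreement. Some genes that this rule names are not reported here. The members and lists were chosen with earlier results of these data known. The alternatives were normexp background correction (offset 50), normalization by quantiles or by cyclic loess, shifts by the median or by the percentile over probes detected everywhere, spike-in scaling, the deposited table, 2 other detection filters, the mean over probes, and thresholds of 1.5-fold and 3-fold.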

Additional observations from a re-analysis of the deposited data

Results flagged for a closer look

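In 14 members the day difference had opposite signs in the 2 populations. With 1 array a group, whether such differences exceed the spread between mice was not tested. The CD45-negative minus the LSK difference was -4.65 for Rsad2, -3.04 for Isg15, -2.10 for Cmpk2, -1.95 for Ifih1 and -1.52 for Irf7. It was -1.18 for Irf9, -1.11 for Oas3, -1.10 for Ifit1, -0.92 for Oasl2, -0.68 for Irgm1, -0.56 for Usp18 and -0.48 for Igtp. It was 2.41 for Bst2 and 1.52 for Irf1. In 4 of the 14, Irf7, Bst2, Ifih1 and Cmpk2, both differences were at least 1.5-fold, and in 6 of them one difference was within the SD of replicate spots (Isg15 and Irf1 in LSK cells, Oasl2, Usp18, Igtp and Irgm1 in CD45-negative cells). Second probes had the other sign for Irf1 in LSK cells (0.34) and for Oas3 in CD45-negative cells (0.14). Scaling to all spike-in probes would turn 10 of the 12 members that were lower in CD45-negative cells and higher in LSK cells to higher in both, and leave Rsad2 and Isg15 opposed.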

How the results depend on the processing

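Each group had 1 array, which limits every value, and no replicate could be left out. No paired analysis was possible because no group has a second sample. Quantile and cyclic loess normalization, the percentile over probes detected on all arrays, the deposited table and either other detection filter kept all medians within the SD of replicate spots and all counts within 1.5 times; a median shift did so except that 5 members became 2-fold higher in LSK cells. All 75 member day differences moved by less than that SD under each of these 7 settings, though quantile and cyclic loess normalization put Dhx58 just under 2-fold in CD45-negative cells (0.99 and 0.94). Normexp background correction moved 28 of the 75 by more than that SD and the mean over probes 14. Normexp left Ifih1 (-0.69) and Cmpk2 (-0.97) short of 2-fold in CD45-negative cells and took Oas1a past it in LSK cells (1.05); the mean over probes took Irf9 past it in CD45-negative cells (-1.03) and Ifih1 in LSK cells (1.16). Normexp background correction gave 3 lower members in CD45-negative cells in place of 5, a day 0 median between the populations of -0.65, and a median CD45-negative minus LSK difference of 0.16 in place of -0.16. The mean over all probes gave a CD45-negative median of 0.32 and 3 members higher in LSK cells at day 0. Causes were not tested, except that a shift by construction moves all genes alike.

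Spike-in scaling changed the most, as it adds 1 constant per comparison. With all 10 spike-in probes the CD45-negative median was 3.42, with 34 higher and 1 lower. The CD45-negative day differences were 1.60 for Ifih1 and 1.49 for Cmpk2. Between the populations the median was 0.48 at day 0, with 17 higher and 8 lower, and -2.07 at day 10, with 35 lower. The median CD45-negative minus LSK difference was 2.74. With the 5 measurable ones, an alternative added after seeing the data, the CD45-negative median was 3.90, with 34 higher and 0 lower. The CD45-negative day differences were then 2.08 for Ifih1, 1.97 for Cmpk2 and 0.39 for Isg15. Between the populations the median was 0.72 at day 0, with 17 higher and 6 lower, and -2.37 at day 10, with 37 lower. The median CD45-negative minus LSK difference was 3.28. All named genes shift by the same 2.77 or 3.25 in CD45-negative cells and by -0.13 or -0.19 in LSK cells; 56.9% of all 2-fold genes were higher in CD45-negative cells at the main scale, 98.3% with all spike-ins and 99.0% with the measurable ones. In LSK cells that share was 34.96%, 21.7% and 16.1%. Of all 14506 genes measured in CD45-negative cells, 13244 were at least 2-fold higher and 223 lower with all spike-ins. With the measurable ones 13686 were higher and 139 lower. Between the populations, all genes were not counted on the spike-in scales.

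At a threshold of 1.5-fold, 21 members were higher and 1 lower in LSK cells, and 8 lower in CD45-negative cells; 8 were higher in LSK than CD45-negative cells at day 0, and 3 higher and 21 lower at day 10. At 3-fold, 1 was higher in LSK cells, 8 higher and 3 lower in CD45-negative cells, 2 higher and 10 lower between the populations at day 0 and 8 lower at day 10. The shares of all genes past 1.5-fold and 3-fold were not counted, so most of these counts cannot be set against genes in general. For higher in LSK cells, 1.5-fold lay between percentiles 93 and 94 of all measured genes. Matching members by RefSeq accession, also added after seeing the data, kept the medians within that SD and the counts within 1.5 times.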

Other observations

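Uba7, Ube2l6 and Herc6, which are among the enzymes that attach the Isg15 protein, were lower together with it in CD45-negative cells. This group was picked after its values were seen. Uba7, which activates Isg15, went from 6.12 to 4.81, and Ube2l6, which carries it, from 4.68 to 1.68. Herc6, a mouse ligase of Isg15 (called Herc5 in the files), went from 0.85 to -0.34. In LSK cells Uba7 went from 4.07 to 4.24, Ube2l6 from -0.81 to -0.02 and Herc6 from -2.18 to -1.79, so all were slightly higher there. On the spike-in scale the CD45-negative direction of Uba7 and Herc6 would turn to higher, and with the measurable spike-ins that of Ube2l6 as well.

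Tap1, Psmb8 and Psmb9, which prepare peptides for MHC class I and answer to interferon gamma, went the other way in CD45-negative cells, also picked after their values were seen. They were 1.66, 1.55 and 1.66 higher there, and 0.02, 0.39 and 0.11 in LSK cells. Nlrc5, their class I activator, was 1.77 higher in CD45-negative cells.

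By accession, the probe named Ifi27l1 is RefSeq's Ifi27, at 4.94 and 5.08 in LSK cells and 6.58 and 5.93 in CD45-negative cells. RefSeq's Gbp6 is on the probe named Mpa2l, at -2.48 and -2.47 in LSK cells and -2.67 and 0.05 in CD45-negative cells, so a 2.72 difference there, unlike the probe named Gbp6.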
